A study of Mus musculus with 27 samples.

Results

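Kdm6a, Kdm5c, Ddx3x and Eif2s3x are the X-linked mouse genes most often cited as escaping X inactivation, and their RNA was followed, in total and per allele, through a day of induced Xist expression in embryonic stem cells. They were chosen by name and by no cut-off on a value measured here, although earlier results of these data were known. They are 4 of the 53801 genes in the deposited table, all with reads in every library. Kdm6a encodes a demethylase of histone H3 lysine 27 and Kdm5c a demethylase of histone H3 lysine 4. Ddx3x encodes a DEAD-box RNA helicase that works in translation, and Eif2s3x the gamma subunit of the initiation factor eIF2, which carries the initiator tRNA to the ribosome.

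The cells were TX1072, a female mouse embryonic stem cell line from an F1 cross of BL/6J and CAST-EiJ, so that reads over strain variants can be given to one X chromosome or the other. In this line doxycycline drives Xist from the BL6 X chromosome. Every group carried a degron on SPEN, a protein that Xist RNA recruits to silence genes, and auxin triggers the loss of such a tagged protein. The SPOC line expressed BglG-GFP-SPOC, a bacterial RNA-binding protein joined to GFP and to the SPOC domain of SPEN, and the GFP line expressed BglG-GFP without that domain. The groups were SPOC Dox+Auxin (5 libraries), SPOC Dox (5 libraries), SPOC untreated (5 libraries, of which 1 is kept apart below), GFP Dox+Auxin (4 libraries), GFP Dox (4 libraries) and GFP untreated (4 libraries). Dox groups received doxycycline for 24 h, and Dox+Auxin groups received auxin alone for 12 h and then both agents for 24 h. With 1 line per construct, SPOC and whatever else differs between the 2 lines cannot be told apart. No group received auxin alone, and none received doxycycline without inducible Xist. The design text calls the replicates biological, although nothing says that they came from separate cultures, so p-values measure the spread between these libraries. The model fits behind most p-values estimate that spread partly over all tested genes, not for each gene alone.

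X inactivation silences most genes on 1 X chromosome of female cells through Xist RNA, which coats the chromosome from which it is made, and SPEN bound to that RNA is needed for most of this silencing. Genes that escape stay transcribed from the inactive X, usually at a lower level than from the active X. The 4 genes also have relatives on the Y chromosome, Uty, Kdm5d, Ddx3y and Eif2s3y, and female cells have none of these. No library held more than 2 reads of any of these Y-linked genes.

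The promoters of the 4 genes are shown because they have a common readout below, BL6 RNA under Xist, but not a common sequence. Each is 300 bases, 250 before and 50 after the RefSeq start, read 5′ to 3′ on the gene's strand in GRCm38.p6. The GENCODE spans given below begin before that start in Kdm5c, Eif2s3x and Ddx3x. Part of the 250 bases, and most of them in Kdm5c and Eif2s3x, thus lies within the annotated gene. Capitals mark AANATGGC, the core of the motif bound by YY1, searched on both strands.
Kdm6a, chrX:18162325-18162624, plus strand: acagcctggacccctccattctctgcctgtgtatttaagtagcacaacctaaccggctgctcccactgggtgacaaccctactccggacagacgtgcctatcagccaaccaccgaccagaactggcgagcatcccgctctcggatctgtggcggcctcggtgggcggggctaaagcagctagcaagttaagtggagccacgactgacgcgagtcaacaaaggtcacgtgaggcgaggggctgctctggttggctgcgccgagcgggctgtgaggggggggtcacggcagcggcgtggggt
Kdm5c, chrX:152232977-152233276, plus strand: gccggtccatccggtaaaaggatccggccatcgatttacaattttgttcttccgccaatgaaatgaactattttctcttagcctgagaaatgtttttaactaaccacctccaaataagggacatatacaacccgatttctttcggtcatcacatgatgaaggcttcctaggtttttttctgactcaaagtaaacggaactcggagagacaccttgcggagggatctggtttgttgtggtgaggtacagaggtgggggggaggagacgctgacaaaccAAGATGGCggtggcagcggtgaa
Ddx3x, chrX:13280772-13281071, plus strand: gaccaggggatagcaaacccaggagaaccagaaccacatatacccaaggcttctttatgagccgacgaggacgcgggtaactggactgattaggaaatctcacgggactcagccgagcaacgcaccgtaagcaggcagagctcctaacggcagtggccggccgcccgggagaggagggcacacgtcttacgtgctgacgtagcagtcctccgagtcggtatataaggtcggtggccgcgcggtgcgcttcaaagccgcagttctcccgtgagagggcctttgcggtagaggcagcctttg
Eif2s3x, chrX:94212602-94212901, minus strand: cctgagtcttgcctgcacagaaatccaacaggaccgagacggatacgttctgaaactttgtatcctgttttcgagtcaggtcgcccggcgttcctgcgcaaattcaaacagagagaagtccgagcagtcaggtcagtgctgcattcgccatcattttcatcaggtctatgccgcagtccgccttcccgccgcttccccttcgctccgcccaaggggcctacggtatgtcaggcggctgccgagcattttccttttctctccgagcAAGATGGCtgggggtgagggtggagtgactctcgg
The motif stood once in Kdm5c, from base 28 with the start as base 1, and once in Eif2s3x, from base 16, and these letters were not in the Kdm6a and Ddx3x windows. It was found in 6.05% of all 32851 RefSeq promoters of that length and in 7.28% of the 1223 X-linked ones. GC content was 63.0% for Kdm6a, 60.0% for Ddx3x, 57.0% for Eif2s3x and 47.0% for Kdm5c, against a median of 51.0% over X-linked promoters. The number of CpG dinucleotides was 25 in Ddx3x, 21 in Kdm6a, 21 in Eif2s3x and 13 in Kdm5c. No binding was measured in these libraries.

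All 4 genes lie on the X chromosome (GRCm38, GENCODE M21), and none overlaps another annotated gene. Ddx3x (ENSMUSG00000000787) spans 13280970 to 13294052 on the plus strand and Kdm6a (ENSMUSG00000037369) spans 18162575 to 18279936 on the plus strand. Eif2s3x (ENSMUSG00000035150) spans 94188707 to 94212862 on the minus strand and Kdm5c (ENSMUSG00000025332) spans 152233020 to 152274535 on the plus strand. The values below count reads over the whole gene, so isoforms are not separated.

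Libraries held 28936459 to 45489094 counts, of which 34.1% to 35.0% were assigned to an allele. For the 4 genes the allelic part was 23.1% of counts in Kdm5c, 21.3% in Eif2s3x, 20.7% in Kdm6a and 11.4% in Ddx3x. Allelic columns did not match the totals of the same name: under the names as deposited, 1303 to 5292 genes per library had more allelic than total counts. Each of the 27 allelic pairs had exactly 1 total column that it never exceeded in any gene. That column never bore its own name, and in 20 pairs it belonged to another group. Allelic values are therefore given under the matched total column. The library labelled SPOC untreated replicate 2 stood apart, with Xist at 177 CPM (counts scaled to a common library size), against 1.48 ± 0.303 CPM in the other 4 libraries of its group (SD), and it is left out of the tests unless stated. Xist, the check of doxycycline, was at 337 ± 46.8 CPM in SPOC Dox+Auxin, 383 ± 62.0 in SPOC Dox, 499 ± 108 in GFP Dox+Auxin, 845 ± 92.7 in GFP Dox and 6.53 ± 1.04 in GFP untreated (SD, n = 4 or 5). Spen RNA was higher with auxin (859 ± 222 CPM in GFP Dox+Auxin, 198 ± 16.5 in GFP Dox, 176 ± 12.3 in GFP untreated); SPEN protein was not measured. All 8 embryonic stem cell markers were detected, at a summed 4931 to 5957 CPM per library, against 3.10 to 6.42 CPM for 5 primitive endoderm markers and 24.8 to 40.9 CPM for 5 fibroblast markers (Col3a1 at 2 counts or fewer), 7.65 to 26.6 CPM for 3 trophoblast markers and 79.8 to 141 CPM for 3 neural markers. The stem cell sum was 4931 to 5222 CPM in GFP Dox+Auxin and 5509 to 5717 in GFP untreated, and its part in the differences below was not tested.

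Per kilobase of exon, Ddx3x was the most abundant of the 4 genes, at group means of 225 to 274 CPM per kb, although reads of its near-identical chromosome 1 copy D1Pas1 can have been counted for it. Eif2s3x followed at 60.1 to 69.4 and Kdm5c at 48.5 to 65.5 CPM per kb, and Kdm6a was lowest at 16.0 to 20.4. The order of Eif2s3x and Kdm5c was clear only with doxycycline alone. In SPOC Dox libraries Eif2s3x held 58.1 to 62.6 and Kdm5c 50.4 to 53.6 CPM per kb, and in GFP Dox libraries 60.9 to 65.2 and 46.3 to 50.8. In the other groups their ranges overlapped.

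Without doxycycline, Kdm5c, Ddx3x and Kdm6a were read almost equally from both X chromosomes, and Eif2s3x was not. Over the untreated libraries of both lines the BL6 allele held 55.2% of the allelic counts of Kdm6a, 50.4% of Kdm5c, 48.1% of Ddx3x and 14.0% of Eif2s3x. The median of 456 X-linked genes was 50.2%, with quartiles at 44.1% and 55.1%. Counted from the lowest of the 456 shares, Eif2s3x had rank 22, Ddx3x rank 172, Kdm5c rank 233 and Kdm6a rank 343. Unequal RNA of the alleles and unequal mapping of their reads cannot be told apart in such a share, so the changes of the allele ratio within a gene are compared below, not its level.

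**Figure D1:**
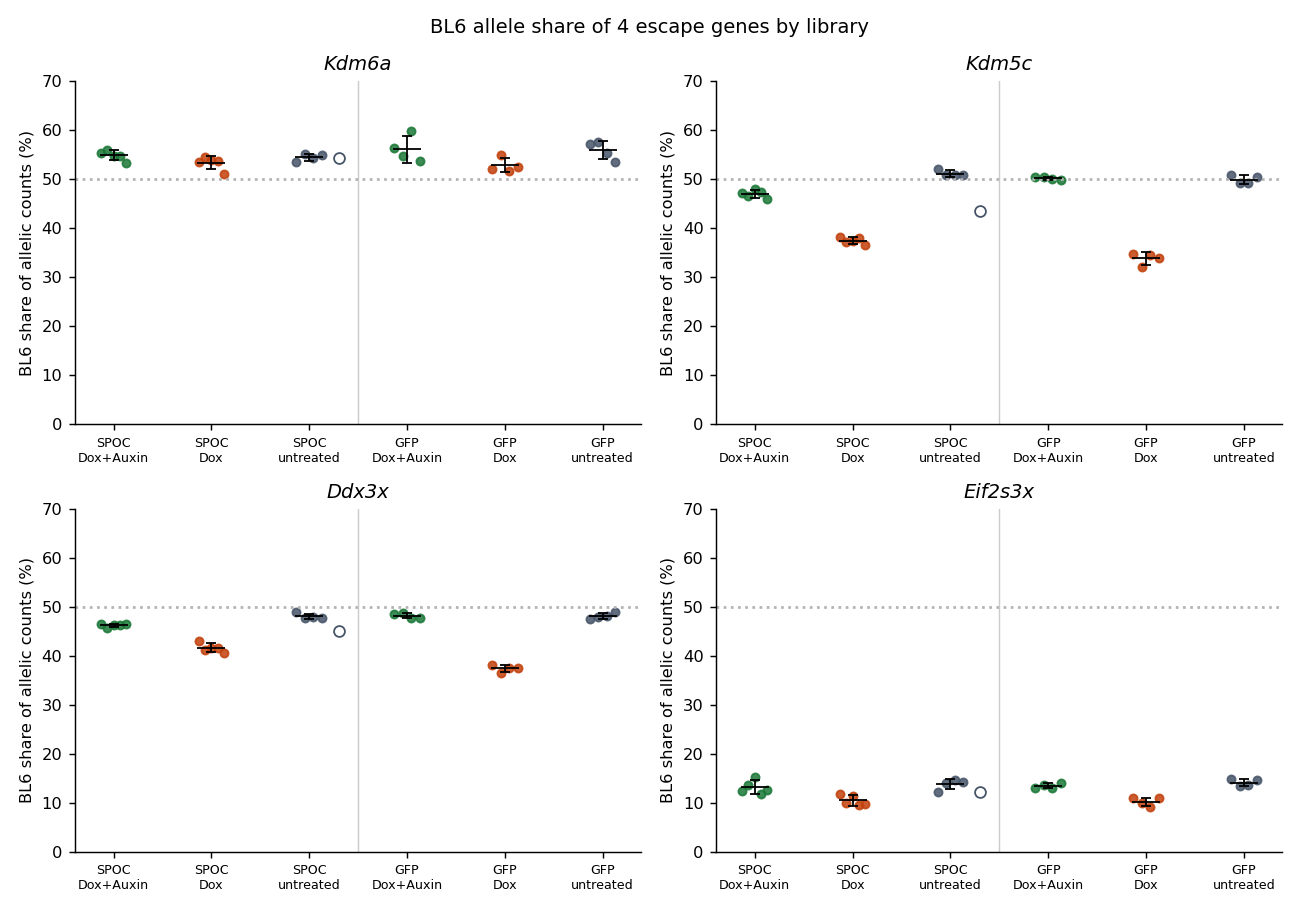
BL6 share of allelic counts (%) of Kdm6a, Kdm5c, Ddx3x and Eif2s3x in each library, by line and treatment; points are libraries, bars are the group mean and SD, and the open circle is the library labelled SPOC untreated replicate 2. Kdm5c, Ddx3x and Eif2s3x are lower in Dox than in untreated libraries of both lines without overlap, and Kdm6a overlaps between all groups.

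After 24 h of doxycycline, with SPEN present, the BL6 share of Kdm5c, Ddx3x and Eif2s3x was lower in both lines, and that of Kdm6a did not pass the test. The question of this comparison is what induced Xist does to the RNA of its own chromosome. The values are those of bulk RNA, so fewer cells that use the BL6 allele and less BL6 RNA per cell cannot be told apart.

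Kdm5c had the largest change. In SPOC Dox libraries its BL6 share was 38.3%, 37.1%, 37.3%, 37.9% and 36.5%, against 52.1%, 50.8%, 50.8% and 50.8% in SPOC untreated libraries. In GFP Dox libraries it was 34.8%, 32.0%, 34.5% and 33.8%, against 50.9%, 49.1%, 49.3% and 50.3% in GFP untreated libraries. Every Dox library lay far below every untreated library of its line. The ratio of BL6 to CAST counts was 57.1% of its untreated value in the SPOC line (log2 change -0.81, SE 0.04, adjusted p = 2.1e-50) and 51.1% in the GFP line (log2 change -0.97, SE 0.04, adjusted p = 3.6e-60). Unless another test is named, these and later p-values are from the quasi-likelihood test of edgeR with Benjamini-Hochberg adjustment. The adjustment is over all 12747 genes with enough allelic counts for allelic values, and over 18346 genes for total counts.

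Ddx3x lost less. Its BL6 share was 43.1%, 41.2%, 41.6%, 41.5% and 40.6% in SPOC Dox libraries, against 48.9%, 47.7%, 47.9% and 47.8% in SPOC untreated libraries. It was 38.2%, 36.5%, 37.5% and 37.5% in GFP Dox libraries, against 47.5%, 47.9%, 48.1% and 49.0% in GFP untreated libraries. The groups did not overlap in either line. The ratio fell by 0.38 on the log2 scale in the SPOC line (SE 0.03, adjusted p = 2.8e-26) and by 0.63 in the GFP line (SE 0.03, adjusted p = 1.6e-48).

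Eif2s3x, already low on BL6, was lower still with doxycycline. Its BL6 share was 11.8%, 9.98%, 11.5%, 9.48% and 9.69% in SPOC Dox libraries, against 12.3%, 14.0%, 14.6% and 14.2% in SPOC untreated libraries. It was 11.0%, 9.86%, 9.22% and 10.9% in GFP Dox libraries, against 14.9%, 13.4%, 13.6% and 14.6% in GFP untreated libraries. Again no Dox library reached the lowest untreated one of its line, although in the SPOC line the highest Dox library, at 11.8%, lay close to the lowest untreated library, at 12.3%. The ratio fell by 0.46 in the SPOC line (SE 0.08, adjusted p = 4.6e-07) and by 0.53 in the GFP line (SE 0.07, adjusted p = 4.5e-10), to 72.9% and 69.2% of the untreated ratio.

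Kdm6a kept a BL6 share above 50% in every library. It was 53.6%, 54.5%, 53.8%, 53.8% and 51.1% in SPOC Dox libraries, against 53.5%, 55.0%, 54.4% and 54.8% in SPOC untreated libraries. It was 52.0%, 55.0%, 51.7% and 52.5% in GFP Dox libraries, against 57.2%, 57.6%, 55.4% and 53.5% in GFP untreated libraries. The groups overlapped in both lines. The log2 change was -0.06 in the SPOC line (95% interval -0.18 to 0.06, adjusted p = 0.84) and -0.17 in the GFP line (interval -0.29 to -0.05, adjusted p = 0.09). Without GFP Dox replicate 2 or without GFP untreated replicate 4 the GFP value was -0.22 and passed.

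Of the 4 genes, 3 were called lower in the SPOC line, where 78.5% of 456 tested X-linked genes were lower and 3.70% of all genes were called in either direction. With GFP 3 were called lower, against 86.4% of X-linked genes lower and 4.61% of all genes called. A call was thus the rule on this chromosome, and 3 of 4 is no more than the background. In size, the changes of the 4 genes were smaller than that of the median X-linked gene. The median X-linked gene had a log2 change of the allele ratio of -1.10 in the SPOC line and -1.69 in the GFP line, or 46.7% and 30.9% of the untreated ratio. Ranked from the highest of the 456 values, Kdm6a was 24th, Ddx3x 59th, Eif2s3x 77th and Kdm5c 142nd in the SPOC line, and in the GFP line Kdm6a was 24th, Eif2s3x 44th, Ddx3x 54th and Kdm5c 86th. The median over the 4 genes was -0.42 in the SPOC line and -0.58 in the GFP line. Over all X-linked allelic counts together, without Xist and Tsix, the BL6 share was 33.0% ± 0.615 in SPOC Dox and 49.3% ± 0.123 in SPOC untreated (SD, n = 5 and 4), and 27.4% ± 1.46 in GFP Dox and 49.2% ± 0.0889 in GFP untreated (SD, n = 4 each). The autosomal BL6 share stayed between 49.8% and 49.9% in all libraries.

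**Figure D2:**
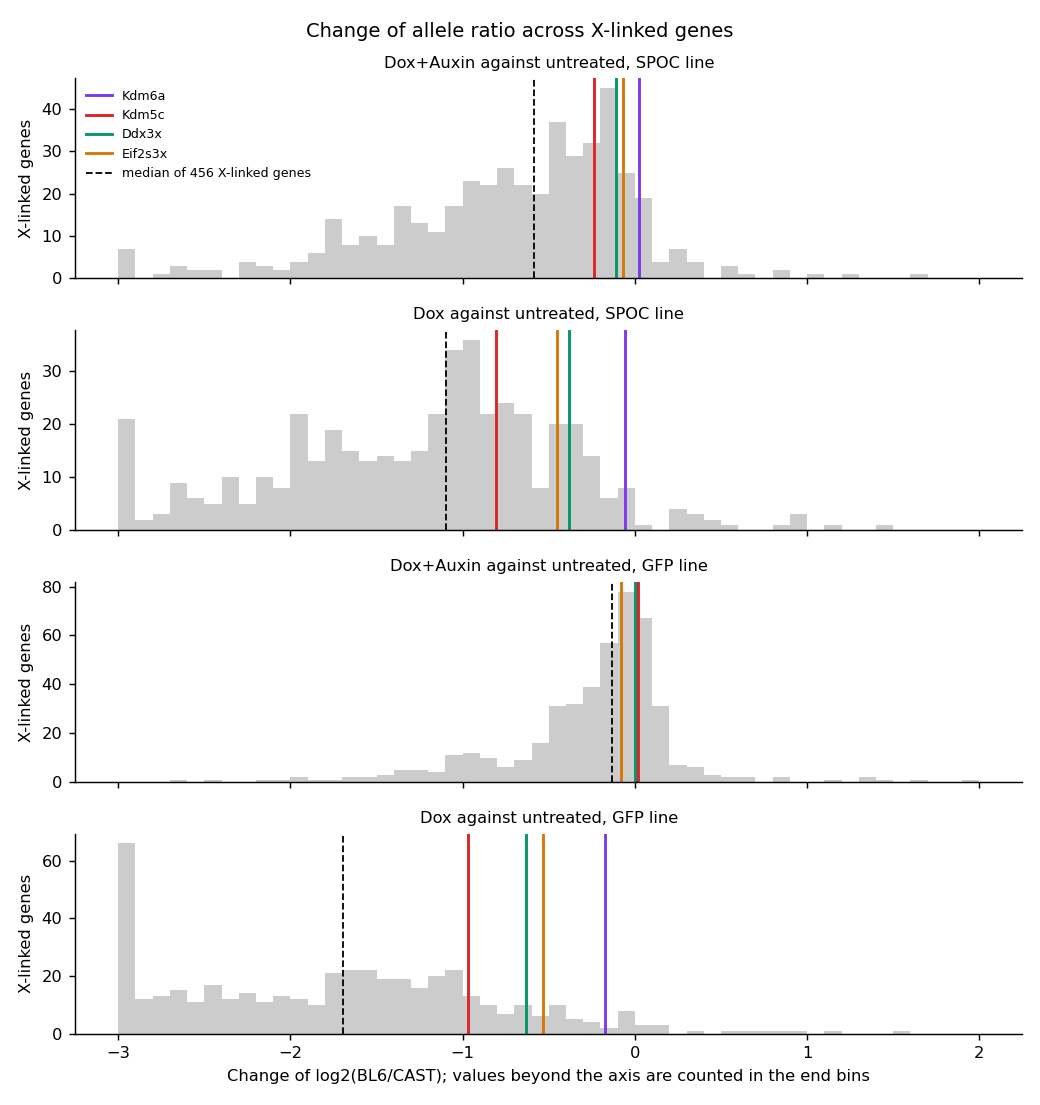
Histograms of the change of log2(BL6/CAST) over 456 X-linked genes in 4 comparisons, with coloured lines at Kdm6a, Kdm5c, Ddx3x and Eif2s3x and a dashed line at the X-linked median. With Dox all 4 genes lie right of the median, which is -1.10 in the SPOC line and -1.69 in the GFP line.

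The 4 genes also differed from each other. The difference between 2 genes in log2(BL6/CAST) was taken in each library and compared between Dox and untreated libraries, for 6 pairs in each of 2 lines, by exact two-sided permutation with adjustment over the 12 tests. Kdm5c moved by -0.43 in the SPOC line and -0.33 in the GFP line relative to Ddx3x, and by -0.36 and -0.44 relative to Eif2s3x. Kdm6a lay above Kdm5c by 0.74 in the SPOC line (exact p = 0.0159) and by 0.79 in the GFP line (exact p = 0.0286). The value of Kdm6a lay above that of Ddx3x by 0.32 and 0.45 and above that of Eif2s3x by 0.39 and 0.35. In each of these 10 tests the Dox and untreated libraries were separate, p was the smallest that the number of libraries allows, 0.0159 with 5 against 4 and 0.0286 with 4 against 4, and the adjusted p was 0.0343. Between Ddx3x and Eif2s3x the difference of change was 0.07 in the SPOC line (exact p = 0.508) and -0.10 in the GFP line (exact p = 0.286), and the libraries overlapped. By this test Kdm5c had the largest fall of the ratio and Kdm6a the smallest change, and Ddx3x and Eif2s3x could not be ordered. Pairs of other X-linked genes were not tested, so the 10 separate results have no background share beside them. Reads of D1Pas1 counted for Ddx3x and unequal mapping of Eif2s3x reads can bear on these values. Their part in the order was not tested.

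The counts of each allele show where the ratios came from. In BL6 counts, scaled by total library size, Kdm5c fell to 31.4 CPM in SPOC Dox, against 55.2 in SPOC untreated (log2 change -0.82, adjusted p = 7.5e-18), and to 26.7 CPM in GFP Dox, against 52.8 in GFP untreated (-0.98, adjusted p = 5.1e-20). Ddx3x fell by 0.39 and 0.49 and Eif2s3x by 0.44 and 0.45 in the SPOC and GFP lines. BL6 counts of Kdm6a were 19.0 CPM in SPOC Dox and 18.2 in SPOC untreated (0.06, adjusted p = 0.56), and 18.3 in GFP Dox and 17.1 in GFP untreated (0.10, adjusted p = 0.24). Thus 3 of 4 BL6 alleles fell, where 85.3% of X-linked genes fell in the SPOC line and 90.8% in the GFP line, and 10.3% and 14.9% of all genes were called.

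The CAST alleles lie on the chromosome without the inducible Xist. Even so, Xist counts given to CAST rose with Dox, by 1.58 in the SPOC line (adjusted p = 0.00012) and 3.09 in the GFP line (adjusted p = 1.7e-11). On BL6 Xist rose by 9.57 and 7.16. Whether the CAST counts are RNA of that allele or reads given to the wrong allele was not tested. For the 4 genes, no CAST allele passed by edgeR in the SPOC line (0 at an unadjusted p under 0.05), where 6.21% of all genes did after adjustment. The log2 changes were 0.12 for Kdm6a, 0.02 for Eif2s3x, -0.01 for Kdm5c and -0.01 for Ddx3x. Among GFP libraries 2 of 4 rose, where 4.17% of X-linked genes rose and 11.1% of all genes were called. CAST counts of Kdm6a were 16.4 CPM in GFP Dox, above every GFP untreated library, which averaged 13.5 (log2 change 0.27, SE 0.06, adjusted p = 0.0027). Ddx3x was at 84.9 CPM in GFP Dox and 76.8 in GFP untreated (0.14, SE 0.04, adjusted p = 0.028), a call that was lost without any 1 of GFP Dox replicates 2, 3 and 4 and GFP untreated replicates 1, 3 and 4, at 0.13 to 0.15. Kdm5c was at -0.02 (adjusted p = 0.88) and Eif2s3x at 0.08 (adjusted p = 0.22).

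**Figure D3:**
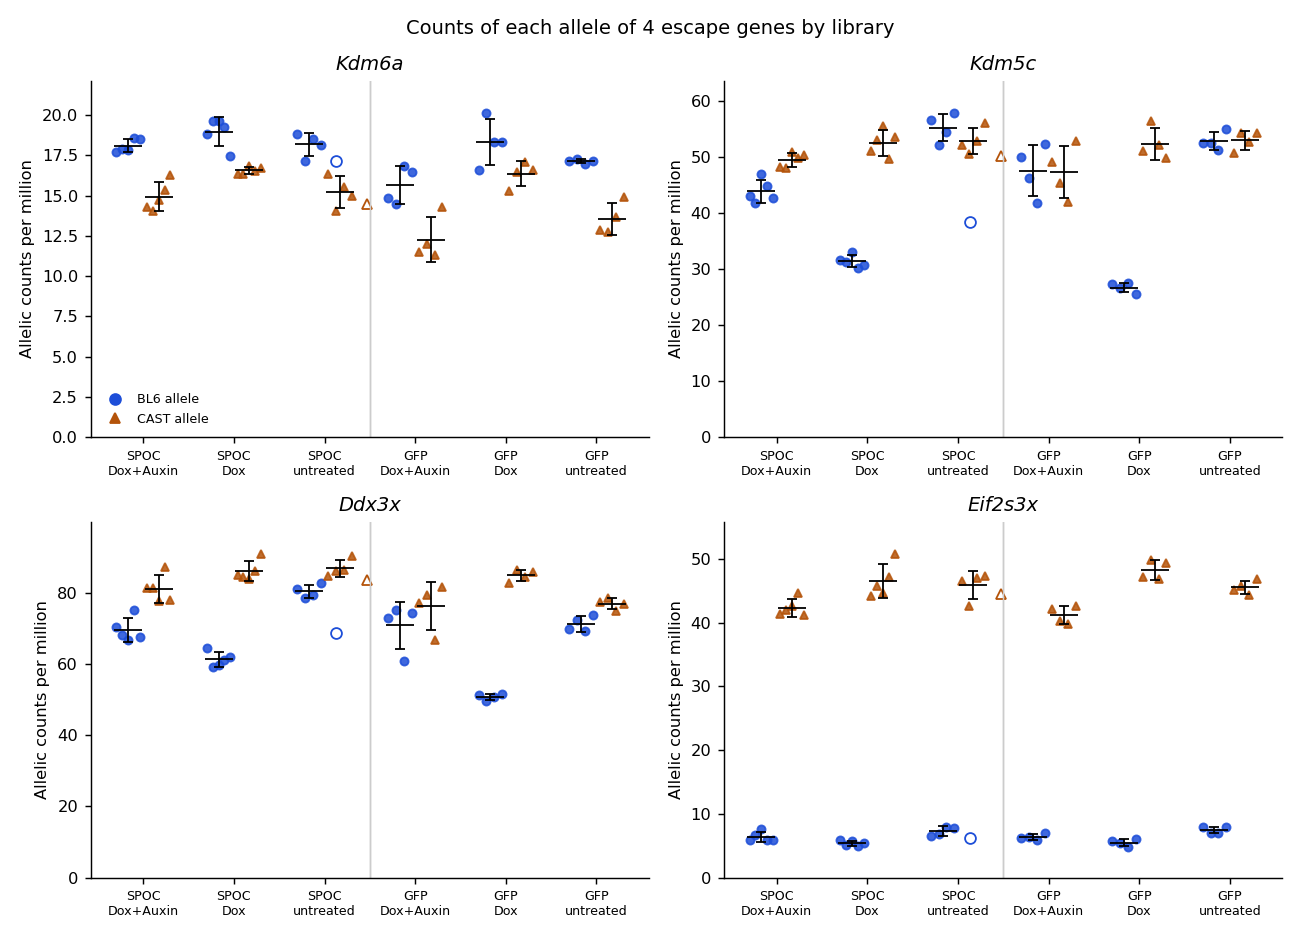
CPM assigned to the BL6 allele (circles) and the CAST allele (triangles) of each gene, by library and group, with group mean and SD; open symbols mark the library labelled SPOC untreated replicate 2. In the Kdm5c panel BL6 counts average 26.7 in GFP Dox and 52.8 in GFP untreated, and CAST counts 52.3 and 53.0.

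Total Kdm5c was lower with Dox in both lines, and total Kdm6a was higher in the GFP line. Kdm5c held 366, 359, 381, 361 and 370 CPM in SPOC Dox libraries, against 473, 445, 459 and 485 in SPOC untreated libraries, and 350, 361, 339 and 329 CPM in GFP Dox libraries, against 451, 462, 440 and 472 in GFP untreated libraries. No Dox library reached an untreated one. Its total fell by 0.34 in the SPOC line (SE 0.04, adjusted p = 2.8e-07) and by 0.40 in the GFP line (SE 0.04, adjusted p = 2.0e-08).

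Kdm6a held 173, 169, 170, 172 and 171 CPM in SPOC Dox libraries, against 163, 154, 165 and 168 in SPOC untreated libraries. Among GFP libraries it held 158, 171, 168 and 173 CPM with Dox, against 146, 151, 148 and 156 in untreated ones. All Dox libraries were above all untreated ones of their line. The rise passed in the GFP line, at 0.16 (SE 0.04, adjusted p = 0.0027), and not in the SPOC line, at 0.07 (interval 0.00 to 0.15, adjusted p = 0.19). Only 2 of 729 tested X-linked genes rose in the GFP line, 0.274%, and Kdm6a was 1 of them.

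Ddx3x held 1281, 1262, 1294, 1299 and 1324 CPM in SPOC Dox libraries, against 1428, 1406, 1455 and 1497 in SPOC untreated libraries, a fall of 0.16 (SE 0.03, adjusted p = 0.00023). In the GFP line it held 1149, 1174, 1190 and 1230 CPM in Dox libraries, against 1229, 1293, 1252 and 1308 in untreated libraries. These overlapped by 1 library, and the fall of 0.10 (SE 0.03, adjusted p = 0.024) was lost without any 1 of GFP Dox replicates 1 and 2 and GFP untreated replicates 2 and 4, with values of -0.08 to -0.10. Eif2s3x held 238, 221, 229, 235 and 239 CPM in SPOC Dox libraries, against 269, 255, 265 and 271 in SPOC untreated libraries, a fall of 0.19 (SE 0.03, adjusted p = 0.00019). In GFP Dox libraries it held 240, 236, 232 and 249 CPM, against 252, 252, 248 and 265 in GFP untreated libraries, and the change of -0.09 did not pass (adjusted p = 0.086). In total counts 3 of 4 genes fell in the SPOC line, where 64.5% of 729 X-linked genes fell and 14.2% of all 18346 genes were called. In the GFP line 2 of 4 fell and 1 rose, where 73.9% of X-linked genes fell and 20.3% of all genes were called.

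**Figure D4:**
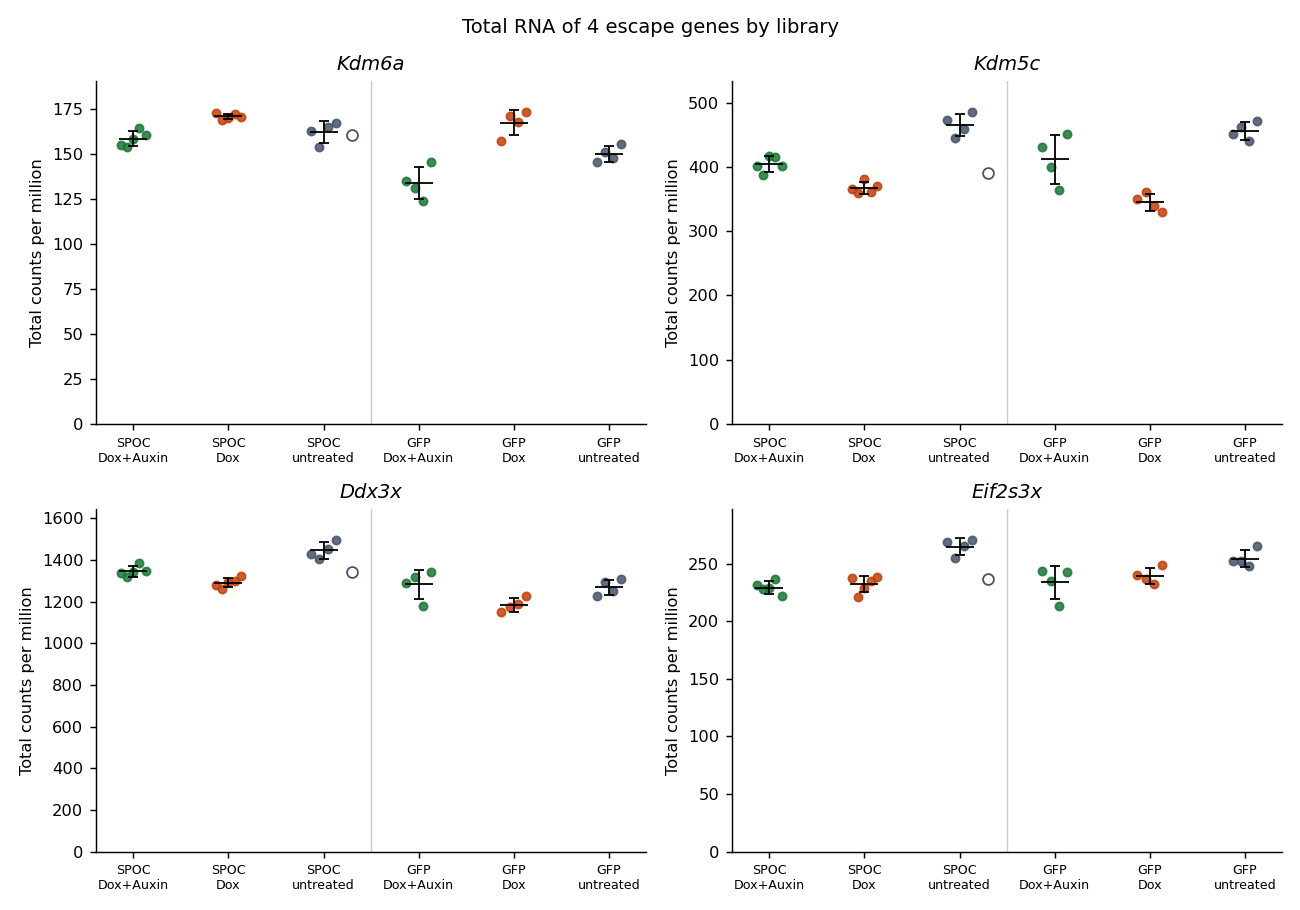
Total CPM of each gene by library and group, with group mean and SD; the open circle is the library labelled SPOC untreated replicate 2. Kdm5c is lower in Dox than in untreated libraries of both lines, and Kdm6a lies higher in Dox libraries, at a mean of 167 CPM in GFP Dox and 150 in GFP untreated.

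When auxin was added to deplete SPEN, the allele ratios of the GFP line lay at their untreated values. This comparison asks how much of the change under Xist needs SPEN. Kdm5c had a BL6 share of 50.4%, 50.4%, 49.9% and 49.8% in GFP Dox+Auxin libraries, which lay within the GFP untreated range given above. Ddx3x was at 48.6%, 48.7%, 47.8% and 47.6%, Eif2s3x at 13.0%, 13.7%, 13.1% and 14.1%, and Kdm6a at 56.4%, 54.6%, 59.9% and 53.6%. Each gene's Dox+Auxin libraries overlapped its untreated libraries, and 0 of 4 passed in edgeR, in limma or at an unadjusted p under 0.05, where 25% of X-linked genes and 6.35% of all genes were called. The 95% intervals of the log2 change against untreated were -0.05 to 0.08 for Kdm5c, -0.05 to 0.06 for Ddx3x, -0.22 to 0.06 for Eif2s3x and -0.11 to 0.14 for Kdm6a. Xist in this group was at 499 CPM, below the 845 CPM of GFP Dox, and its part in the difference between the groups was not tested.

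Set directly against GFP Dox, GFP Dox+Auxin had a higher BL6 share in all 4 genes, where 80.9% of X-linked genes were higher and 11.1% of all genes were called. The ratio of Kdm5c rose by 0.99 (SE 0.04, adjusted p = 5.0e-58), that of Ddx3x by 0.64 (SE 0.03, adjusted p = 8.4e-47) and that of Eif2s3x by 0.45 (SE 0.08, adjusted p = 1.1e-06). Kdm6a rose by 0.19 (SE 0.06, adjusted p = 0.041) with overlapping libraries. That last call was lost without any 1 of GFP Dox replicates 1, 3 and 4 and GFP Dox+Auxin replicates 1 and 3, at 0.11 to 0.18, and in limma (adjusted p = 0.086).

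In the SPOC line with Dox+Auxin, part of the change remained in Kdm5c and Ddx3x. The BL6 share of Kdm5c was 47.2%, 46.5%, 48.0%, 47.4% and 45.9% in SPOC Dox+Auxin libraries, all below the SPOC untreated libraries and all above the SPOC Dox libraries. Its ratio was 84.9% of the untreated value (log2 change -0.24, SE 0.03, adjusted p = 7.6e-09). Ddx3x was at 46.4%, 45.6%, 46.3%, 46.2% and 46.5%, again between both other groups without overlap. Its ratio was 92.7% of untreated (log2 change -0.11, SE 0.03, adjusted p = 0.0044), a call that was lost without SPOC untreated replicate 1 (-0.09) and in limma (adjusted p = 0.061).

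Eif2s3x, at 12.5%, 13.7%, 15.3%, 11.8% and 12.6%, and Kdm6a, at 55.4%, 56.0%, 54.8%, 54.8% and 53.2%, overlapped the SPOC untreated libraries and did not pass (log2 change -0.07, interval -0.21 to 0.07, and 0.02, interval -0.10 to 0.14). So 2 of 4 genes were called lower, where 58.6% of X-linked genes were lower and 5.07% of all genes were called, and the X-linked median was -0.59. With the library labelled SPOC untreated replicate 2 included, neither call remained, with Kdm5c at -0.15 (adjusted p = 0.20) and Ddx3x at -0.08 (adjusted p = 0.11). Against SPOC Dox, the ratio rose by 0.57 in Kdm5c (adjusted p = 1.3e-34), 0.38 in Eif2s3x (adjusted p = 1.6e-05) and 0.27 in Ddx3x (adjusted p = 1.2e-16). Kdm6a was at 0.08 (interval -0.03 to 0.19, adjusted p = 0.54). These are 3 of 4 genes, where 51.1% of X-linked genes were higher and 5.25% of all genes were called.

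The lines were also compared at each treatment, which asks whether SPOC on the BglG fusion goes with another response. Untreated, none of the 4 allele ratios differed by edgeR or limma, where 0.290% of all genes did by edgeR after adjustment. At an unadjusted p under 0.05 there was 1 of 4, Kdm5c, and the share of all genes at that threshold was not determined. With Dox, the ratio was higher in the SPOC than in the GFP line by 0.23 in Kdm5c (SE 0.04, adjusted p = 1.1e-06) and by 0.25 in Ddx3x (SE 0.03, adjusted p = 1.7e-12), with no overlap between lines. Eif2s3x differed by 0.04 (interval -0.11 to 0.19) and Kdm6a by 0.03 (interval -0.09 to 0.14), and neither passed. With Dox+Auxin the order of the lines was the other way round, with the SPOC line lower by 0.18 in Kdm5c (log2 difference -0.18, SE 0.03, adjusted p = 3.1e-05) and by 0.11 in Ddx3x (-0.11, SE 0.03, adjusted p = 0.0037). Eif2s3x was at -0.03 and Kdm6a at -0.08, and neither passed. The 2 of 4 genes called at each treatment stand beside 46.9% of X-linked genes higher with Dox and 42.1% lower with Dox+Auxin, and 2.55% and 3.25% of all genes called. In limma the Ddx3x difference with Dox+Auxin did not pass (-0.11, adjusted p = 0.078). With all 27 libraries the Kdm5c differences did not pass, at 0.23 with Dox (adjusted p = 0.12) and -0.18 with Dox+Auxin (adjusted p = 0.18). Xist was lower in the SPOC line in both cases, at 383 CPM in SPOC Dox and 845 in GFP Dox, and at 337 in SPOC Dox+Auxin and 499 in GFP Dox+Auxin. Whether its level has a part in these differences was not tested.

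The difference between the lines in their response was tested as an interaction. For Dox against untreated it passed in Ddx3x, whose fall was smaller in the SPOC line by 0.25 (SE 0.04, adjusted p = 8.5e-07). Kdm5c was at 0.16 (SE 0.05, adjusted p = 0.11), Kdm6a at 0.11 and Eif2s3x at 0.08. For Dox+Auxin against untreated it passed in Kdm5c, at -0.25 (SE 0.05, adjusted p = 5.8e-05), and not in Ddx3x, at -0.11 (SE 0.04, adjusted p = 0.20), Kdm6a, at 0.01, or Eif2s3x, at 0.01. With the library kept apart included, the Kdm5c interaction was at -0.17 (adjusted p = 0.66) and the Ddx3x interaction with Dox at 0.29 (adjusted p = 1.0e-07). Each is 1 of 4 genes, where 37.7% of X-linked genes were higher in the first interaction and 31.6% lower in the second, and 1.49% and 1.45% of all genes were called.

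With Dox+Auxin the total RNA of 3 genes was lower than untreated in each line, also where the allele ratio did not pass. In GFP cells Kdm6a held 135, 131, 124 and 146 CPM in Dox+Auxin libraries, which overlapped the untreated ones by 1 library, and fell by 0.16 (SE 0.04, adjusted p = 0.0012). Kdm5c, at 432, 400, 364 and 451 CPM, fell by 0.15 (adjusted p = 0.0081), and Eif2s3x, at 244, 235, 213 and 243 CPM, fell by 0.12 (adjusted p = 0.0085). Replicate 3 was the lowest GFP Dox+Auxin library in all 4 genes, and without it Kdm5c was at -0.09 and Eif2s3x at -0.08 and neither passed. Ddx3x, at 1292, 1317, 1182 and 1344 CPM, was at 0.01 (interval -0.05 to 0.08). These 3 of 4 genes stand beside 29.5% of X-linked genes lower and 38.4% of all genes called. By allele, Kdm5c was lower on BL6 (-0.15, adjusted p = 0.018) and on CAST (-0.16, adjusted p = 0.01), as was Eif2s3x (-0.23, adjusted p = 0.04, and -0.14, adjusted p = 0.01). Leaving out 1 library, the BL6 call of Kdm5c was lost without GFP Dox+Auxin replicate 2 or 3 or GFP untreated replicate 4 (-0.09 to -0.14) and its CAST call without GFP Dox+Auxin replicate 3 (-0.11). The BL6 call of Eif2s3x was lost without GFP Dox+Auxin replicate 1, 2 or 3 or GFP untreated replicate 1 or 4 (-0.19 to -0.22). Kdm6a also passed on BL6 without GFP Dox+Auxin replicate 3 (-0.16) and on CAST without GFP Dox+Auxin replicate 4 (-0.22). On BL6 32.5% of X-linked genes were lower and 30.7% of all genes were called, and on CAST 15.1% were lower and 30.2% were called.

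In the SPOC line Eif2s3x held 231, 228, 228, 237 and 222 CPM in Dox+Auxin libraries and fell by 0.21 against untreated (SE 0.03, adjusted p = 2.4e-05). Kdm5c, at 402, 388, 417, 415 and 401 CPM, fell by 0.20 (SE 0.04, adjusted p = 0.00034), and Ddx3x, at 1336, 1317, 1344, 1384 and 1347 CPM, by 0.10 (SE 0.03, adjusted p = 0.0082). All 3 lay below the SPOC untreated libraries without overlap. Kdm6a, at 155, 154, 159, 165 and 161 CPM, overlapped them, at -0.03 (interval -0.11 to 0.04). The 3 of 4 genes stand beside 48.6% of X-linked genes lower and 31.2% of all genes called. On the BL6 allele Kdm5c fell by 0.33 (adjusted p = 6.4e-07) and Ddx3x by 0.21 (adjusted p = 0.00038), 2 of 4 where 64.9% of X-linked genes fell and 23.1% of all genes were called. On the CAST allele Eif2s3x fell by 0.12 (adjusted p = 0.041), 1 of 4 where 11.8% of X-linked genes fell and 21.5% of all genes were called, and this call was lost without any 1 of SPOC Dox+Auxin replicates 1, 2, 3 and 5 and SPOC untreated replicates 1, 4 and 5 (-0.10 to -0.12). Ddx3x also passed on CAST without SPOC Dox+Auxin replicate 4 (-0.13) and Eif2s3x on BL6 without SPOC Dox+Auxin replicate 3 (-0.26). With the replicate number as a block, CAST counts of Ddx3x passed too (-0.10, adjusted p = 0.039), 2 of 4.

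Markers of other cell types also differed between these groups. Summed neural markers were at 95.9 to 141 CPM in SPOC Dox+Auxin, 88.4 to 118 in SPOC Dox and 79.8 to 111 in SPOC untreated, and at 96.8 to 107 in GFP Dox+Auxin, 103 to 126 in GFP Dox and 80.0 to 92.1 in GFP untreated. Within that list Pax6 rose with Dox+Auxin against Dox, by 1.57 in the SPOC line and 2.21 in the GFP line, while Sox1 fell in both lines, by 0.87 in the SPOC line. Pax6 and Sox1 reached at most 2.43 and 3.52 CPM. Tubb3 made up most of the sum, at 75.6 to 136 CPM. It was not called in that comparison, at 0.21 in the SPOC line and -0.15 in the GFP line. Summed trophoblast markers were at 17.2 to 21.8 CPM in SPOC Dox+Auxin, 8.11 to 13.7 in SPOC Dox and 14.9 to 22.0 in SPOC untreated, and in GFP Dox+Auxin they reached 26.6 and lay above every library of the other GFP groups, at 7.65 to 10.9 in GFP Dox and 9.31 to 16.3 in GFP untreated. Of these Cdx2 fell with Dox against untreated, by 0.85 in the SPOC line and 0.61 in the GFP line, and rose with Dox+Auxin against Dox, by 0.95 and 1.38. Of 4 tested fibroblast markers, 2 were lower with Dox+Auxin than untreated in SPOC cells and 4 in GFP cells, and of 5 primitive endoderm markers 1 fell in the SPOC line and 0 in the GFP line. In these comparisons 31.2% of all genes were called in either direction in the SPOC line and 38.4% in the GFP line. The part of these genes in the results on the 4 escape genes was not tested.

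Between Dox+Auxin and Dox libraries, total Kdm6a was lower with auxin and total Kdm5c higher. Kdm6a fell by 0.11 in the SPOC line (SE 0.03, adjusted p = 0.015) and by 0.32 in the GFP line (SE 0.04, adjusted p = 4.5e-08), with no overlap in either line. That is 1 of 4 genes, where 9.05% of X-linked genes fell in the SPOC line and 4.94% in the GFP line. Kdm5c rose by 0.14 in the SPOC line (SE 0.04, adjusted p = 0.0068) and by 0.26 in the GFP line (SE 0.04, adjusted p = 1.6e-05). Ddx3x was at 0.06 in the SPOC line (adjusted p = 0.12) and rose by 0.11 in the GFP line (SE 0.03, adjusted p = 0.0036). Eif2s3x was at -0.02 and -0.03 and did not pass. These rises of 1 of 4 genes in the SPOC line and 2 of 4 in the GFP line stand beside 41.2% and 63.5% of X-linked genes, and 31.9% and 47.2% of all genes were called.

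By allele, the BL6 counts of 3 of 4 genes rose with Dox+Auxin against Dox in each line, where 58.8% of X-linked genes rose in the SPOC line and 84.9% in the GFP line, and 24.2% and 41.5% of all genes were called. Kdm5c rose by 0.48 and 0.83, Ddx3x by 0.18 and 0.48 and Eif2s3x by 0.25 and 0.22 in the SPOC and GFP lines. BL6 counts of Kdm6a fell by 0.23 in the GFP line (adjusted p = 0.00099), where 0.658% of X-linked genes fell, and were at -0.07 in the SPOC line (adjusted p = 0.36). The BL6 call of Eif2s3x in the SPOC line was lost without SPOC Dox replicate 2 or 4 or SPOC Dox+Auxin replicate 2 or 3 (0.17 to 0.23). Its BL6 call in the GFP line was lost without GFP Dox replicate 2 or 3 or GFP Dox+Auxin replicate 1, 2 or 4 (0.16 to 0.23).

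CAST counts fell in 1 of 4 genes in the SPOC line, where 11.2% of X-linked genes fell and 22.2% of all genes were called, and in all 4 in the GFP line, where 16.7% of X-linked genes fell and 39.6% of all genes were called. The SPOC call was Eif2s3x, at -0.14, and it was lost without SPOC Dox replicate 5 (-0.10), while Ddx3x passed without SPOC Dox+Auxin replicate 4 (-0.11) and Kdm6a without SPOC Dox+Auxin replicate 5 (-0.18). In GFP libraries Kdm6a fell by 0.42 (adjusted p = 1.9e-06) and Eif2s3x by 0.23. The GFP call of Kdm5c was lost without GFP Dox replicate 2 or GFP Dox+Auxin replicate 2 or 3 (-0.09 to -0.13), and that of Ddx3x without GFP Dox+Auxin replicate 3 (-0.10). Eif2s3x thus rose on BL6 and fell on CAST in both lines while its total did not pass.

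**Figure D5:**
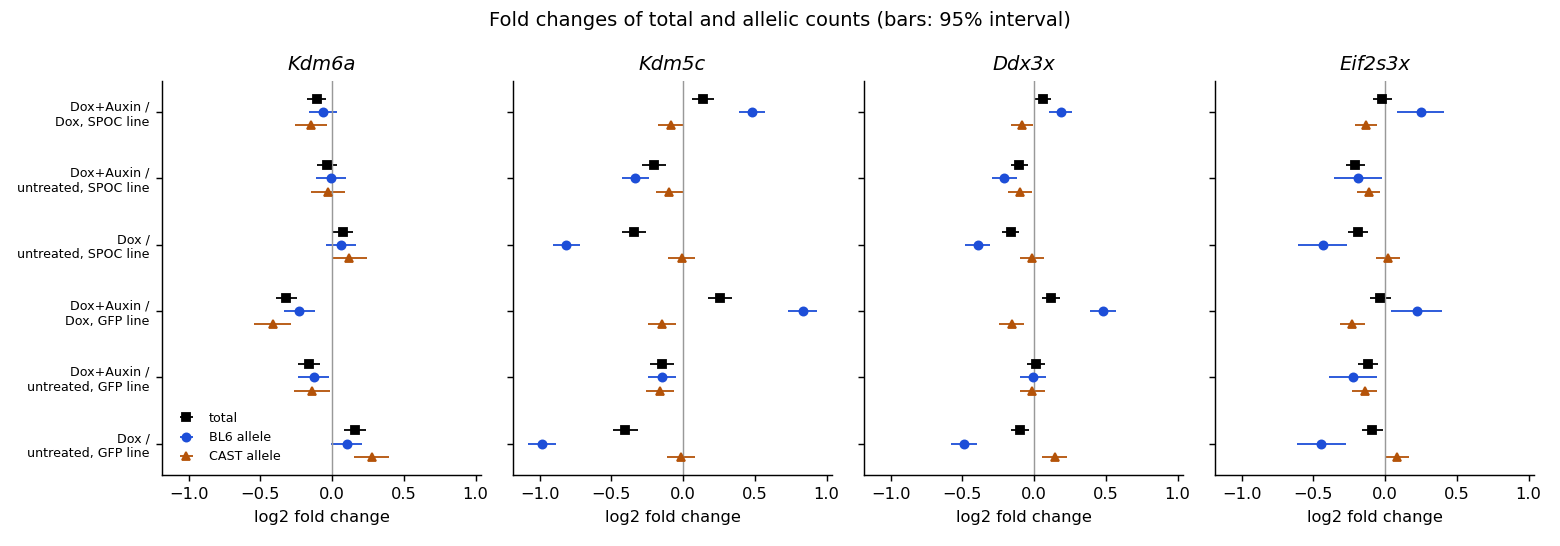
Log2 fold changes of total counts (squares), BL6 counts (circles) and CAST counts (triangles) of each gene in 6 comparisons within lines, with 95% intervals. For Dox against untreated, BL6 counts of Kdm5c, Ddx3x and Eif2s3x lie left of 0 in both lines, and total counts of Kdm6a lie at 0.07 in the SPOC line and 0.16 in the GFP line.

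Between the lines, total Ddx3x was higher in the SPOC line untreated, by 0.19 (adjusted p = 0.00054), and with Dox, by 0.12 (adjusted p = 0.0067), without overlap. That is 1 of 4 genes at each, where 6.04% and 35.4% of X-linked genes were higher and 9.23% and 11.5% of all genes were called. With Dox+Auxin total Kdm6a was higher in the SPOC line by 0.24 (SE 0.04, adjusted p = 1.6e-05), 1 of 4 where 4.66% of X-linked genes were higher and 24.3% of all genes were called. No interaction in total counts passed for any of the 4 genes by edgeR or DESeq2 without a replicate block, where 0.251% of all genes did for Dox and 3.64% for Dox+Auxin. At an unadjusted p under 0.05 there were 0 for Dox and 2 for Dox+Auxin, Kdm6a at 0.13 and Ddx3x at -0.12. The shares above are after adjustment, and the share of all genes at the unadjusted threshold was not determined, so these 2 have no background. With the replicate number as a block both passed for Dox+Auxin, Ddx3x at -0.11 (adjusted p = 0.028) and Kdm6a at 0.135 (adjusted p = 0.034). Without GFP Dox+Auxin replicate 3 the Ddx3x value was -0.16 and passed, and without GFP Dox+Auxin replicate 4 the Kdm6a value was 0.17 and passed. Leaving out GFP untreated replicate 4 or SPOC untreated replicate 3, total Kdm6a also passed between the untreated lines (0.13 to 0.14), and leaving out GFP Dox+Auxin replicate 4, so did Ddx3x between the lines with Dox+Auxin (0.09).

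Of other genes reported to escape X inactivation in mouse, none tested had an allele ratio change with Dox above that of Kdm6a. Some lay above Kdm5c, and the difference from the 4 genes was not tested. Of 14 such genes, 13 were in the table and 9 had enough allelic counts. With Dox 7 of the 9 were called lower in each line and none higher, with a median log2 change of -1.06 in the SPOC line and -1.02 in the GFP line. This stands beside 78.5% of X-linked genes lower in the SPOC line and 86.4% in the GFP line. Of all genes, 3.7% and 4.61% were called. Utp14a, a nucleolar protein gene, was at -0.54 and -0.89, Shroom4 at -0.43 and -1.09 and 1810030O07Rik at -0.41 and -0.84 in the SPOC and GFP lines. Firre, a long non-coding RNA gene, was at -2.44 and -3.58, while Mid1 and Ftx did not pass in either line. Of 23 tested X-linked housekeeping genes, 21 were lower in the SPOC line and 22 in the GFP line, beside the same X-linked shares, with medians of -1.10 and -1.52. Kdm6a was thus at a higher value than all 9 listed escape genes in both lines, and Kdm5c, at -0.81 and -0.97, stood among them. Most X-linked genes of any kind also lay below Kdm6a, which was 24th from the highest of 456 in each line. These genes were listed from reports on various mouse tissues.

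The nearest tested genes on each side had a more negative change of the allele ratio than the gene beside them in nearly every case. That difference was not itself tested. Most X-linked genes anywhere also lay below Kdm6a, Ddx3x, Eif2s3x and Kdm5c. From the highest of 456 values these ranked 24th, 59th, 77th and 142nd in the SPOC line. In the GFP line they ranked 24th, 54th, 44th and 86th. A more negative neighbour is thus the rule on this chromosome. Whether neighbours differ from other X-linked genes was not tested. Iqsec2, 7.8 kb from Kdm5c, had an allele ratio change of -2.72 in the SPOC line and -2.82 in the GFP line (adjusted p = 8.1e-14 and 3.4e-12). On the other side Kantr, at 20.3 kb, was at -1.29 and -1.55, and Tspyl2, at 62.3 kb, at -1.50 and -2.18. Smc1a, the cohesin subunit gene 170.3 kb away on the side of Iqsec2, was at -1.02 and -1.68. Beside Eif2s3x, Klhl15 at 21.7 kb was at -2.16 and -2.93 and the transcription factor gene Zfx at 65.0 kb at -1.54 and -2.03. Beside Ddx3x, the deubiquitinase gene Usp9x at 107.6 kb was at -0.47 and -1.03 and Cask at 223.0 kb at -0.24 (adjusted p = 0.085) and -0.94. Kdm6a has its nearest tested neighbour, Fundc1, 590.2 kb away, at -0.77 and -1.18. The exceptions were Cask in the SPOC line, beside Ddx3x at -0.38, and Efhc2 in the GFP line, at -0.08 (SE 0.54) beside Kdm6a at -0.17. Nyx and Slc9a7 had too few allelic counts.

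None of the tested autosomal relatives and partners of the 4 genes was called for the allele ratio with Dox. Of 10 listed, the 4 Y-linked ones were not tested, and 0 of the other 6 passed in either line. Few genes of any kind did, 3.7% of all genes in the SPOC line and 4.61% in the GFP line. In total counts none was called in the SPOC line with Dox, where 14.2% of all genes were called. Among GFP libraries Eif2s1, the alpha subunit of eIF2, rose by 0.10 (adjusted p = 0.028) and D1Pas1 fell by 0.18 (adjusted p = 0.042), where 20.3% of all genes were called. D1Pas1 is a chromosome 1 retrogene nearly identical to Ddx3x, with 3975 to 6362 counts, so reads of either can have been counted for the other and both values are uncertain. With Dox+Auxin against untreated, 2 of the 6 fell and 1 rose in the SPOC line, and 4 fell in the GFP line, where 31.2% and 38.4% of all genes were called. Eif2s1 fell by 0.11 in the SPOC line (edgeR adjusted p = 0.0067) and by 0.10 in the GFP line (adjusted p = 0.019). Eif2s2, the beta subunit of eIF2, fell by 0.13 (adjusted p = 0.0088) and by 0.17 (adjusted p = 0.0015). The demethylase genes Kdm6b, at -0.14 (adjusted p = 0.05, just above the threshold) and -0.16 (adjusted p = 0.032), and Kdm5b, at -0.04 (adjusted p = 0.47) and -0.24 (adjusted p = 2.9e-05), were called lower in the GFP line. Kdm5a was called higher in the SPOC line, at 0.15 (adjusted p = 0.014), and was at 0.09 (adjusted p = 0.16) in the GFP line. D1Pas1 was at -0.06 and -0.03 and did not pass.

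Across the 26 libraries, total Kdm5c followed Ddx3x and Eif2s3x (Pearson r of log2 CPM 0.68 for each) and not Kdm6a (-0.279). Ddx3x and Eif2s3x had r = 0.483, and Kdm6a had r = 0.154 with Ddx3x and 0.146 with Eif2s3x. The X-linked protein-coding genes most like Kdm5c were Tab3, Phf8 and Las1l (r = 0.954, 0.953 and 0.935). Those most like Kdm6a reached only 0.709 (Mamld1), 0.67 (Xpnpep2) and 0.664 (Dach2), while its closest autosomal genes were Trim24, Rad21 and Chmp4c (0.944, 0.943 and 0.94). For Ddx3x they were Nxt2, Klf8 and Rbm10 on the X chromosome (0.872, 0.852 and 0.832) and for Eif2s3x Msn, Hdac8 and Wnk3 (0.864, 0.847 and 0.836). These are the highest of 533 X-linked and 13480 autosomal genes over libraries that share line, treatment and depth, and are given as a description.

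The library labelled SPOC untreated replicate 2 had BL6 shares below those of the other untreated libraries of its line in Kdm5c and Ddx3x. Kdm5c was at 43.4% (95% Wilson interval 41.7% to 45.2%, counting error only), against 50.8% to 52.1% in the other 4. Ddx3x was at 45.1% (43.7% to 46.5%), against 47.7% to 48.9%. Its shares of Kdm6a, 54.2%, and Eif2s3x, 12.2%, were within or next to the untreated range. With it included, the calls of Dox against untreated in the SPOC line remained, with Kdm5c at -0.73 (adjusted p = 1.0e-08), Ddx3x at -0.35 (adjusted p = 2.7e-21) and Eif2s3x at -0.42 (adjusted p = 3.3e-06), and Kdm6a, at -0.06, did not pass.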

How the data were processed

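RNA of TX1072 cells was sequenced as paired ends from TruSeq libraries, per the labels' protocols. Without their roles, the submitters' processing notes list the build mm10 and the tools DESeq2 1.18.1, Picard 2.18.2, STAR 2.5.3a, featureCounts and Trim Galore 0.4.4. How reads were assigned to alleles, the annotation and the strand setting were not given in the sources used here. One deposited table by the authors has, per the file headers, raw counts per gene, RPKM values and counts per allele for 27 libraries. The deposited RPKM values were not used. Symbols were taken from GENCODE M21, which held 53620 of the 53801 IDs.

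After filterByExpr, which left 18346 genes, and TMM scaling, counts were fitted in edgeR 4.0.16 (R 4.3.3) with 1 term per group over 26 libraries and the robust quasi-likelihood test. Allele ratios were fitted to 2 columns per library, with a term per library and a BL6-over-CAST term per group, for the 12747 genes that averaged 10 or more counts per allelic column. BL6 and CAST counts were also fitted alone with the library sizes of the totals. Genes with a Benjamini-Hochberg adjusted p of at most 0.05 over all tested genes were called. The standard error is the log2 change over the root of F, and intervals are 1.96 standard errors each way. The 4 genes held 822 to 6847 allelic counts per library, which gives a 95% Wilson half-width of 1.18 to 3.39 percentage points on a BL6 share. These and other intervals on shares cover counting error only. All pairs of replicates differed by more than sampling noise.

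Alternatives were limma 3.58.1 and DESeq2 1.42.0, DESeq2 size factors, TMM from autosomal genes, other filters, all 27 libraries, a replicate block, the allelic columns as named, and leaving out each library. The fits were tested on simulated data. Pair tests, counts and figures used Python 3.11.15, scipy 1.17.1, pandas 2.3.3 and matplotlib 3.10.9. Promoters are from the RefSeq table of GRCm38.p6, which held all 4 genes. The 4 genes, the other gene lists and the tests were chosen with earlier results of these data known. Besides list members, the genes named are the 2 nearest tested protein-coding genes on each side of each of the 4, and the 3 X-linked and 3 autosomal protein-coding genes with the highest correlation to each.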

Additional observations from a re-analysis of the deposited data

Results flagged for a closer look

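Of 48 groups of values checked, 3 held a library far from the others of its group by Dixon's test, where chance gives about 1 in 20. The BL6 share of Ddx3x was 45.56% in SPOC Dox+Auxin replicate 2, below the other 4 libraries of that group. The BL6 share of Kdm5c was 52.1% in SPOC untreated replicate 1, above the other 3. The BL6 share of Kdm6a was 51.06% in SPOC Dox replicate 5, below the other 4.

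The response to treatment differed between the lines in the interaction test for Ddx3x with Dox, by 0.25 on the log2 scale of BL6 over CAST (edgeR adjusted p = 8.5e-07), and for Kdm5c with Dox+Auxin, by -0.25 (edgeR adjusted p = 5.8e-05).

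The library labelled SPOC untreated replicate 2, which the tests do not use, had Xist at 177 CPM and BL6 shares of 43.43% for Kdm5c and 45.1% for Ddx3x, while the X-linked BL6 share over all genes was 40.49%. Those values lie outside the range of the other 4 untreated libraries of the line.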

How the results depend on the processing

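The falls of the allele ratio of Kdm5c, Ddx3x and Eif2s3x with Dox against untreated kept their direction and call in both lines under each alternative run except the allelic columns as named. Under those names, which contradict the totals, 0 of the 4 genes were called in each of the allele ratio, BL6 and CAST comparisons, except for 1 BL6 and 2 CAST calls in SPOC Dox+Auxin against untreated. There 28 values had the other sign. For GFP Dox against untreated they were 0.10 (ratio) and 0.22 (BL6) for Ddx3x, 0.16 (BL6) for Eif2s3x, and 0.18 (ratio) and 0.29 (BL6) for Kdm5c. For GFP Dox+Auxin against Dox they were, as ratio, BL6 and CAST, -0.23, -0.038 and 0.16 for Ddx3x, -0.30, -0.076 and 0.16 for Kdm5c and -0.11, 0.045 and 0.17 for Kdm6a, and -0.11 (ratio) and 0.17 (CAST) for Eif2s3x. For GFP Dox+Auxin against untreated they were 0.21 (BL6) and 0.34 (CAST) for Eif2s3x and 0.21 and 0.31 for Kdm5c. For SPOC Dox+Auxin against untreated the ratio was 0.038 for Ddx3x and 0.035 for Kdm5c. The SPOC against GFP ratios were -0.27 (Dox) and 0.21 (Dox+Auxin) for Ddx3x and -0.44 and 0.28 for Kdm5c, and the interactions were -0.31 for Ddx3x with Dox and 0.15 for Kdm5c with Dox+Auxin.

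With all 27 libraries the number of genes called was 0, not 2, for the SPOC Dox+Auxin ratio against untreated, 0, not 1, for the Dox+Auxin interaction of the ratio, 1, not 2, for SPOC against GFP ratios with Dox and with Dox+Auxin, 1, not 2, for GFP Dox+Auxin BL6 counts against untreated, and 2, not 1, for SPOC against GFP untreated totals. Limma called 1, not 2, for the SPOC Dox+Auxin ratio and for SPOC against GFP with Dox+Auxin. DESeq2 size factors gave 2, not 1, for SPOC Dox+Auxin against Dox CAST counts and SPOC against GFP untreated totals, and 1, not 2, for GFP Dox+Auxin BL6 counts against untreated, and the DESeq2 Wald test gave 2 for SPOC against GFP untreated totals. The cause of these changes was not tested.

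Leaving out 1 library, the number called ranged from 1 to 2 for GFP Dox CAST counts, 2 to 4 for GFP Dox+Auxin against Dox CAST counts and 0 to 2 in the SPOC line, and, for Dox+Auxin against untreated, from 0 to 2 (BL6), 1 to 3 (CAST) and 1 to 3 (total) in the GFP line and 0 to 2 (CAST) and 1 to 2 (ratio) in the SPOC line. It was 1 to 2 for SPOC against GFP totals, untreated and with Dox+Auxin, and 0 to 1 for the Dox+Auxin interaction of totals.

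The labels give replicate numbers but no shared culture or day, so same-numbered libraries were not taken as paired. Their deviations correlated by -0.14 to 0.21 in the GFP line (5 of 12 pairs over 0.1). In the SPOC line they correlated by -0.04 to 0.46, and 11 of 13 pairs were over 0.1. All 4 SPOC Dox+Auxin and untreated pairs were among these (0.101 to 0.243). Whether same-numbered libraries share a source was not tested. With a replicate block the number called was 3, not 1, for SPOC Dox+Auxin against Dox CAST counts, 2, not 1, for SPOC Dox+Auxin against untreated CAST counts and for SPOC against GFP untreated totals, and 2, not 0, for the Dox+Auxin interaction of totals; the block left 30 other counts within 1.5 times. Kdm6a has the fewest allelic counts of the 4 genes, and its shares are the least precise.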
